A study of Mus musculus with 20 samples.

Results

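Messenger RNA of 10 genes that carry out bile acid synthesis, conjugation, transport and sensing was followed in liver and in epididymal white adipose tissue (eWAT, the fat pad beside the epididymis) of IR 4A and WT mice. The genes were chosen by symbol: Cyp7a1, Cyp8b1, Cyp27a1 and Cyp7b1 (synthesis), Slc27a5 and Baat (conjugation), Slc10a1 and Abcb11 (transport), and Nr1h4 and Nr0b2 (sensing). All 10 had an entry among the 15608 genes of the liver count table, and 9 had one among the 20738 genes of the eWAT table. Nr0b2 had no entry in the eWAT table. IR 4A mice carry an insulin receptor with alanine changes in its MAD2-binding motif, MAD2 being a mitotic checkpoint protein that helps to take the receptor off the cell surface, and WT mice carry the normal receptor. The allele itself is not described in the labels, which name the genotypes as IR 4A and WT only. All mice were males aged 2 months, and each genotype had 5 liver and 5 eWAT libraries, which makes 4 groups. No strain, animal number or time of day is given, so p-values measure only the spread between these libraries.

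Hepatocytes turn cholesterol into bile acids along a classic route that Cyp7a1 opens and an alternative route that Cyp27a1 and Cyp7b1 serve. Bile acids returning from the gut bind the nuclear receptor FXR, the product of Nr1h4, which induces the repressor SHP, the product of Nr0b2, and the export pump Abcb11, while Cyp7a1 and Cyp8b1 are held down. In mouse liver, insulin signalling is known to lower Cyp8b1 through the transcription factor FoxO1, and Cyp7a1 is known to vary with feeding and time of day.

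Library totals ran from 18209000 to 24238359 counts in IR 4A liver and from 17989420 to 21067651 in WT liver. In eWAT they ran from 13651874 to 15530589 in IR 4A and from 15702786 to 21615358 in WT. Of 8 hepatocyte markers, all were in the liver table, and their summed level ran from 71788 to 85369 CPM (read counts scaled to library size by TMM) in IR 4A liver and from 72892 to 87194 CPM in WT liver. A pair of WT liver libraries stood apart in 9 acute phase genes, whose summed level was 33918 CPM in WT 1 and 18176 CPM in WT 3, against 1644 to 4029 CPM in the other 8 liver libraries. The eWAT libraries held RNA of neighbouring tissue. Summed over 8 markers each, epididymis genes stood at 14838 to 21910 CPM in IR 4A and 4897 to 15500 CPM in WT, and adipocyte genes at 3550 to 22264 CPM in IR 4A and 12255 to 41173 CPM in WT. The summed level of 8 Kupffer cell and macrophage markers was 65.4 to 169.97 CPM in IR 4A eWAT and 222 to 662 CPM in WT eWAT. That of 6 stellate cell markers was 369 to 1031 CPM in IR 4A and 1126 to 2387 CPM in WT. Both sums did not overlap between genotypes, whereas those of the other marker lists in eWAT did. Even so, 0 genes of any of these lists passed the test in eWAT. Both lists were drawn up for liver and hold genes of other cells too, such as Cd68 and Dcn, so they do not show liver cell types in fat.

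In liver, none of the 10 genes passed the test for a difference between IR 4A and WT. The count was 0 of 10 at an adjusted p under 0.05 (edgeR quasi-likelihood test, Benjamini-Hochberg adjustment over all genes), where 0.00805% of the 12421 genes tested passed (1 gene, lower in IR 4A). At an unadjusted p under 0.05 the count was 1 of 10, Cyp7b1, where 18.1% of all genes lay under that limit. DESeq2 and limma voom likewise called 0 of 10. The estimate was negative for 8 of 10, where 49.0% of all genes had a negative estimate, and the median log2 fold change was -0.04 over the 10 genes and 0.005 over all genes. The groups overlapped for all 10, where 3.51% of all genes had groups that did not overlap.

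Cyp7a1 (ENSMUSG00000028240) encodes the rate-limiting enzyme of the classic route. Its level was 173, 271, 200.4, 251 and 207 CPM in IR 4A livers 1 to 5, against 454, 506, 551, 111 and 55.8 CPM in WT livers 1 to 5. The IR 4A livers lay close together, whereas the WT livers fell on both sides of them, with WT 1, WT 2 and WT 3 above every IR 4A liver and WT 4 and WT 5 below every IR 4A liver. The highest library exceeded the lowest 1.57-fold in IR 4A and 9.86-fold in WT; a difference in spread was not tested. The mean was 220.3 ± 39.9 CPM in IR 4A and 336 ± 233 CPM in WT (SD, n = 5 each). The log2 fold change was -0.61 (SE 0.50, 95% interval -1.58 to 0.37) and did not pass (edgeR adjusted p = 0.542). Without WT 1 and WT 3, the libraries high in acute phase genes, it was -0.03 (edgeR adjusted p = 0.988). Both also lay above every IR 4A liver in Cyp7a1, so leaving them out had to raise the estimate. The part of the acute phase in the estimate was not tested.

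Cyp8b1 (ENSMUSG00000050445) encodes the sterol hydroxylase that commits the pathway to cholic acid. Its level was 245, 252, 221, 289.9 and 253 CPM in IR 4A livers 1 to 5, against 376, 432, 325, 163 and 199 CPM in WT livers 1 to 5. The same arrangement held as for Cyp7a1: WT 1, WT 2 and WT 3 lay above all IR 4A livers, and WT 4 and WT 5 lay below all of them. The range was narrower, 1.31-fold in IR 4A and 2.66-fold in WT. The mean was 252 ± 24.6 CPM in IR 4A and 299 ± 115 CPM in WT (SD, n = 5 each), with a log2 change of -0.25 (SE 0.23, 95% interval -0.70 to 0.20, edgeR adjusted p = 0.598). Without WT 1 and WT 3 it was -0.07 (edgeR adjusted p = 0.927), and without WT 2 alone -0.09. Each of these WT livers lay above every IR 4A liver, so leaving it out had to raise the estimate.

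**Figure D1:**
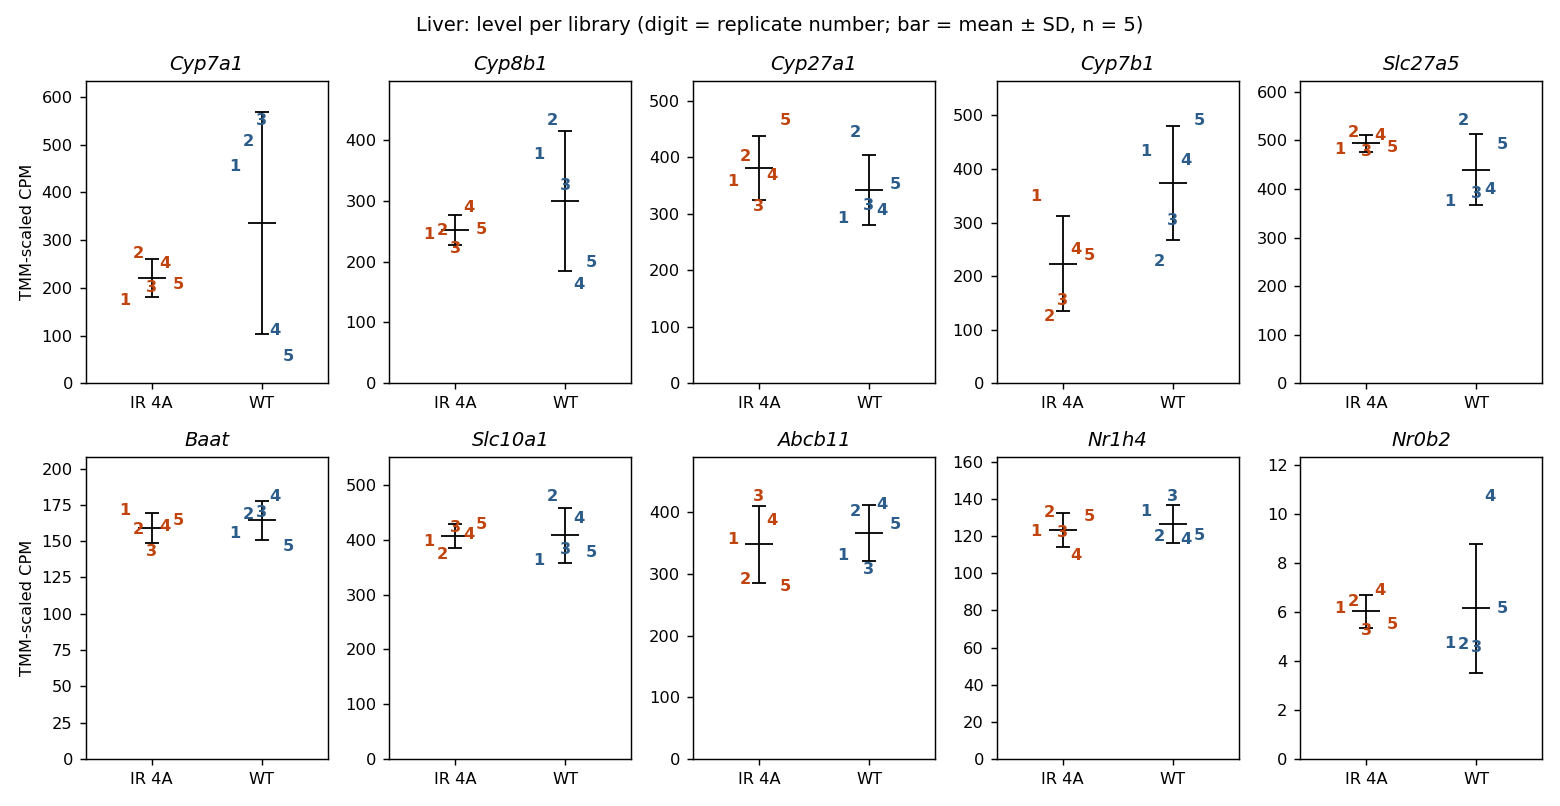
Level of the 10 genes in each liver library (vertical axis, TMM-scaled CPM from 0), with IR 4A on the left and WT on the right of each panel, digits giving the replicate number and bars the mean ± SD of 5 libraries. Cyp7a1 and Cyp8b1 spread far more widely in WT than in IR 4A, with WT 1 to 3 above and WT 4 and 5 below the IR 4A libraries, while Slc10a1, Baat and Nr1h4 differ little within or between groups.

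Nr0b2 (ENSMUSG00000037583), whose product SHP represses Cyp7a1 and Cyp8b1, drew the fewest reads of the 10 genes. It stood at 6.16, 6.43, 5.23, 6.88 and 5.48 CPM in IR 4A livers 1 to 5, against 4.71, 4.69, 4.55, 10.7 and 6.13 CPM in WT livers 1 to 5. WT 1, WT 2 and WT 3, the livers high in Cyp7a1, were the 3 lowest of the 10 livers, and WT 4 was the highest. WT 5, the liver lowest in Cyp7a1, lay within the IR 4A range. The mean was 6.03 ± 0.678 CPM in IR 4A and 6.16 ± 2.64 CPM in WT (SD, n = 5 each), a log2 change of -0.03 (SE 0.23, edgeR adjusted p = 0.968). Its sign turned when WT 4 was left out, to 0.26 (edgeR adjusted p = 0.339).

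The members are set against each other by the ratio of their levels within each library, which does not depend on scaling. Cyp8b1 over Cyp7a1 was 1.42, 0.929, 1.11, 1.16 and 1.23 in IR 4A livers 1 to 5, against 0.829, 0.855, 0.591, 1.46 and 3.56 in WT livers 1 to 5. The ratio was lowest in WT 1, WT 2 and WT 3 and highest in WT 5 and WT 4, so Cyp7a1 moved over a wider range than Cyp8b1 between the same libraries. The acute phase sum, high in WT 1 and WT 3, was 2751 CPM in WT 2, which was high in Cyp7a1 as well. It was 3436 CPM in WT 4 and 4021 CPM in WT 5, which were low in Cyp7a1. The summed level of 11 clock genes was 569, 578, 660.4, 664 and 645 CPM in IR 4A livers and 393, 626, 505, 520.3 and 536 CPM in WT livers. This sum did not separate WT 4 and WT 5 from the other WT livers. It adds genes that peak at opposite times of day, so it cannot give the time of day. The part of the acute phase, feeding state or time of day in the split was not tested.

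**Figure D2:**
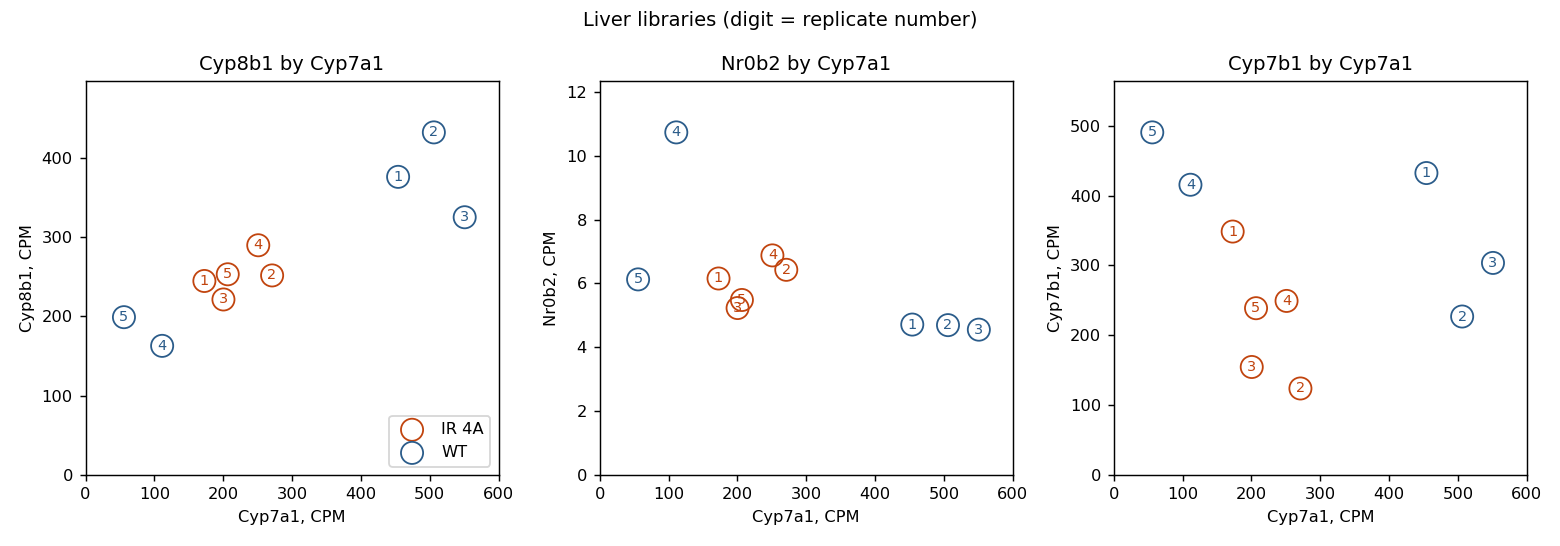
Cyp8b1, Nr0b2 and Cyp7b1 (vertical axes, TMM-scaled CPM) against Cyp7a1 (horizontal axis, TMM-scaled CPM) in the 10 liver libraries, with circles coloured by genotype and digits giving the replicate number. IR 4A libraries sit together at 173 to 271 CPM of Cyp7a1, between WT 4 and 5 on the left and WT 1 to 3 on the right, which have the most Cyp8b1 and the least Nr0b2.

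The promoters of the pair whose levels ran opposite ways across the WT livers are shown because Cyp8b1 and Nr0b2 are textbook targets of the nuclear receptors NR5A2 (LRH-1) and HNF4. Each line gives the 250 bases before the transcription start from RefSeq on build GRCm38.p6, 5′ to 3′ on the gene's own strand, with searched motifs in capitals. Cyp8b1 lies on the minus strand at chr9:121916306-121916555 and Nr0b2 on the plus strand at chr4:133553126-133553375.
Cyp8b1: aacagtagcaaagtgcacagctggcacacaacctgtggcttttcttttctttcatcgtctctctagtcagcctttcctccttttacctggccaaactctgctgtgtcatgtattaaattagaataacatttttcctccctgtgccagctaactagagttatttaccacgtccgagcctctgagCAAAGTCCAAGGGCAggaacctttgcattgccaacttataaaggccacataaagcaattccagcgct
Nr0b2: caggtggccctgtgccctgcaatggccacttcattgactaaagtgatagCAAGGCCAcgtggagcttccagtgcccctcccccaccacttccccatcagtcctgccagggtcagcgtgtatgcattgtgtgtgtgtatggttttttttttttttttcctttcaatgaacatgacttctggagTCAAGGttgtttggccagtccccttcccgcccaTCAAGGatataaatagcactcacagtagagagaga
In Cyp8b1 the capitals join an HNF4 motif, CAAAGTCCA, from base -67 to -59 and an NR5A2 motif, CAAGGNCA, from base -60 to -53, which overlap, counting -1 as the base before the start. Nr0b2 held CAAGGNCA from base -201 to -194 and the NR5A2 core TCAAGG at -68 to -63 and -35 to -30. It held no match to the HNF4 motif. Searched on both strands, CAAAGTCCA occurred in 0.384%, CAAGGNCA in 5.53% and TCAAGG in 12.5% of 32851 mouse promoters of that length. A match describes the letters of the window and no binding was measured. The promoters of Cyp27a1, Nr1h4, Slc10a1 and Abcb11 were searched too and held none of these motifs. Promoters of Cyp7a1, Cyp7b1, Slc27a5 and Baat were not analysed here.

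The alternative route gave the lowest p of the 10 genes. Cyp7b1 (ENSMUSG00000039519) encodes the hydroxylase that acts on the oxysterols Cyp27a1 makes. Its level was 349, 124, 154, 249 and 239 CPM in IR 4A livers 1 to 5, against 432, 227, 304, 416 and 491 CPM in WT livers 1 to 5. IR 4A 2 and IR 4A 3 lay below every WT liver, IR 4A 4 and IR 4A 5 lay above WT 2 only, and IR 4A 1 lay above WT 2 and WT 3. The mean was 223 ± 88.4 CPM in IR 4A and 374 ± 107 CPM in WT (SD, n = 5 each), with a log2 change of -0.75 (SE 0.27, 95% interval -1.28 to -0.21). It did not pass (edgeR adjusted p = 0.204, unadjusted p = 0.0187), and over 21 alternatives the adjusted p ran from 0.0649 to 0.382 with the estimate between -0.97 and -0.59. The authors' deposited table gives a log2 change of -0.77 (SE 0.28, DESeq2 adjusted p = 0.103) for Cyp7b1 and adjusted p of 0.564 to 0.987 for the other members, where 2.5% of 13287 genes passed in that table.

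Cyp7b1 did not follow the Cyp7a1 split in the same way in all livers. Cyp7b1 over Cyp7a1 was 2.02, 0.456, 0.771, 0.993 and 1.16 in IR 4A livers 1 to 5, against 0.952, 0.448, 0.551, 3.73 and 8.79 in WT livers 1 to 5. The balance lay toward Cyp7b1 in WT 4 and WT 5, and most toward Cyp7a1 in WT 2 and IR 4A 2, so the ratio did not separate the genotypes. Cyp27a1 (ENSMUSG00000026170), the mitochondrial sterol hydroxylase that opens the alternative route, stood at 357, 401, 313, 368 and 465 CPM in IR 4A livers 1 to 5, against 292, 444, 315, 306 and 352 CPM in WT livers 1 to 5. The groups overlapped over most of their range. The mean was 381 ± 56.8 CPM in IR 4A and 342 ± 61.3 CPM in WT (SD, n = 5 each), with a log2 change of 0.16 (SE 0.14, edgeR adjusted p = 0.566), and of 0.05 without WT 1 and WT 3.

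The conjugation pair showed small spread in IR 4A. Slc27a5 (ENSMUSG00000030382) encodes bile acyl-CoA synthetase, which activates bile acids before Baat (ENSMUSG00000039653) joins them to taurine or glycine. Slc27a5 was 481, 516, 477, 511 and 486 CPM in IR 4A livers 1 to 5, against 374, 541, 390.1, 400.1 and 492 CPM in WT livers 1 to 5. WT 1, WT 3 and WT 4 lay below all IR 4A livers and WT 2 above them. Its mean was 494 ± 18.0 CPM in IR 4A and 439.5 ± 73.1 CPM in WT (SD, n = 5 each), a log2 change of 0.17 (SE 0.11, edgeR adjusted p = 0.440). Without WT 1 and WT 3 the Slc27a5 estimate was 0.05 (edgeR adjusted p = 0.867). Baat was 171, 158, 143, 159.9 and 164 CPM in IR 4A livers 1 to 5, against 155, 169, 169.8, 181 and 147 CPM in WT livers 1 to 5. The Baat values of the genotypes were interleaved, with a log2 change of -0.04 (SE 0.08, 95% interval -0.20 to 0.11, edgeR adjusted p = 0.807).

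Both genes of transport at the hepatocyte membranes had estimates near 0. Slc10a1 (ENSMUSG00000021135) encodes NTCP, which takes conjugated bile acids up from the blood. It was 397, 374, 423, 411 and 429 CPM in IR 4A livers 1 to 5, against 363, 480.3, 382, 439 and 378 CPM in WT livers 1 to 5. All IR 4A livers lay within the WT range, and the means were 407 ± 22.1 CPM in IR 4A and 408 ± 49.5 CPM in WT (SD, n = 5 each). The log2 fold change had a 95% interval of -0.19 to 0.18 (edgeR adjusted p = 0.983). Abcb11 (ENSMUSG00000027048) encodes BSEP, the pump that exports bile salts into the canaliculus. It was 356, 292, 426, 387 and 279 CPM in IR 4A livers 1 to 5, against 330.4, 402, 307, 412 and 379.7 CPM in WT livers 1 to 5. Here the IR 4A livers held both the highest and the 2 lowest values, with a log2 change of -0.07 (SE 0.13, 95% interval -0.33 to 0.19, edgeR adjusted p = 0.810).

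Nr1h4 (ENSMUSG00000047638), the gene of FXR itself, was among the steadiest of the 10. It was 122, 133, 122, 109.6 and 130.5 CPM in IR 4A livers 1 to 5, against 133, 120.0, 142, 118 and 120.2 CPM in WT livers 1 to 5. The groups overlapped over most of their range and the log2 fold change was -0.04 (SE 0.08, 95% interval -0.19 to 0.12, edgeR adjusted p = 0.851). WT 4 and WT 5, low in Cyp7a1, had Nr1h4 and Abcb11 within the range of the other livers. Between Nr1h4 and Abcb11 the Pearson r of log2 CPM deviations from the genotype mean was -0.83 over the 10 livers. That was the lowest r of any pair of the 10 genes. The Abcb11 promoter, on the minus strand at chr2:69342617-69342866 (RefSeq, GRCm38.p6, 5′ to 3′ on the gene's strand), is shown because it holds an inverted repeat of the kind FXR binds, in capitals.
Abcb11: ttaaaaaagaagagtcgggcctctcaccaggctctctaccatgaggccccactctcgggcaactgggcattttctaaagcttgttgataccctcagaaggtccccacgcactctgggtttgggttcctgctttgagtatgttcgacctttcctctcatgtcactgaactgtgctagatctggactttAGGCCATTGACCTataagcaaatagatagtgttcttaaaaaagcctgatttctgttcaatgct
The repeat, AGGNCA and TGACCT set 1 base apart, spanned bases -63 to -51 and was found, on either strand, in 0.0335% of the 32851 promoters. No binding was measured here.

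**Figure D3:**
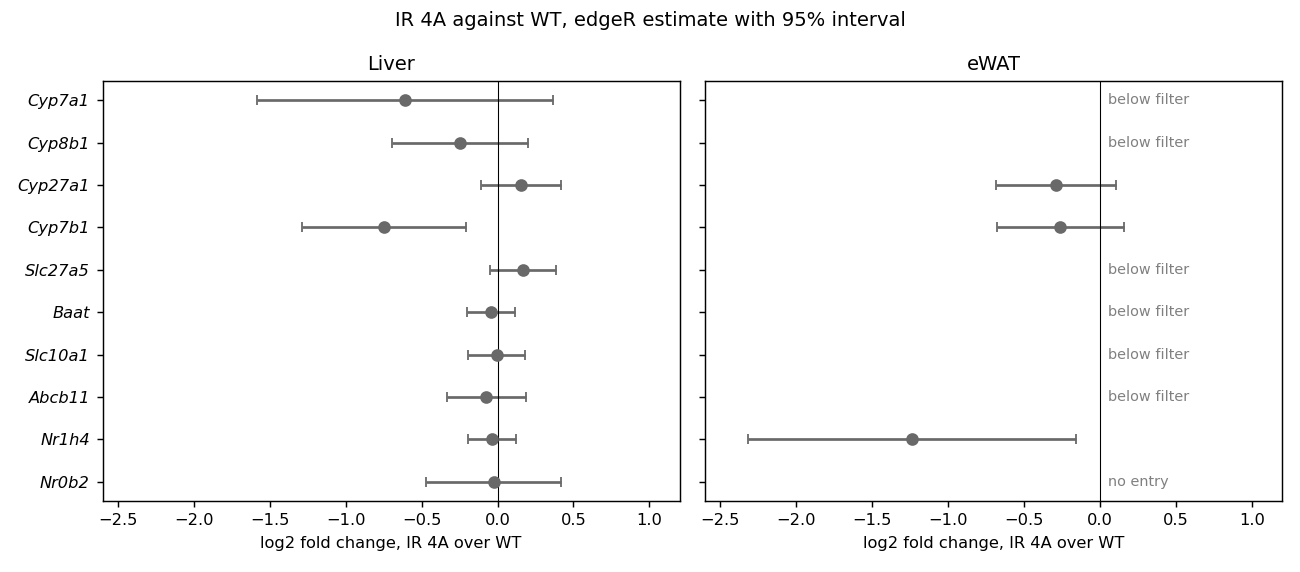
Log2 fold change of IR 4A over WT (horizontal axis) for each of the 10 genes (rows) in liver on the left and eWAT on the right, points being the edgeR estimate and bars the 95% interval. In liver the bars of 9 genes cross 0 and that of Cyp7b1 does not before adjustment; in eWAT 6 genes were below the count filter and Nr0b2 had no entry.

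To compare the genes with each other, levels were divided by transcript length (GENCODE M21). Over the 10 liver libraries the median CPM per kilobase was 231 for Slc10a1, 211 for Slc27a5, 187 for Cyp27a1, 129.5 for Cyp8b1, 128 for Cyp7b1, 83.4 for Baat, 73.2 for Abcb11, 62.3 for Nr1h4, 54.8 for Cyp7a1 and 5.13 for Nr0b2. The ranges of neighbours in this order overlapped, except that Cyp7a1, at 13.4 to 132 CPM per kilobase, lay above Nr0b2, at 4.02 to 9.49.

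By Pearson r of log2 CPM deviations from the genotype mean over the 10 livers, among 8523 genes of at least 5 CPM, the genes closest to Cyp7a1 were Adh4 (r = 0.95, Spearman rho 0.87), Elmo3 (r = 0.94) and Sympk (r = 0.93). Those running most opposite to Cyp7a1 were Rasa2 (r = -0.95), Cyp4a12a (r = -0.94) and Pphln1 (r = -0.93). The WT livers keep their split in Cyp7a1 in these deviations, so each r describes the split as well as the rest. With WT 4 and WT 5 left out, the r with Cyp7a1 was 0.90 for Adh4, 0.85 for Elmo3 and 0.78 for Sympk, and -0.86 for Rasa2, -0.85 for Cyp4a12a and -0.78 for Pphln1. The deviations stayed those from the mean of all WT livers, so the other WT livers still stood above the IR 4A livers in Cyp7a1. These values therefore still hold part of the split, and the genes were picked in the same libraries. For Cyp8b1 they were Tmem38b, Dynlt1b and Arid4b (r = 0.94, 0.94 and 0.92) and, opposite, Mtrex, Ankzf1 and Kat5 (r = -0.94, -0.94 and -0.91). None of the 6 genes picked for Cyp8b1 was among the 6 picked for Cyp7a1, although the r between Cyp7a1 and Cyp8b1 themselves was 0.87 (Spearman rho 0.90). For Cyp7b1 they were Snrpd1, H2ax and Mrpl57 (r = 0.91, 0.90 and 0.89) and, opposite, Fbxo34, Fes and Washc5 (r = -0.90 for each). These are the extremes of many genes over 10 libraries that share scaling, and are given as a description.

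Other genes of bile acid metabolism were read from 3 textbook lists. Of 18 tested synthesis genes, 0 passed in either direction, and at an unadjusted p under 0.05 none was higher and 2 were lower in IR 4A, where 8.6% of all genes were higher and 9.48% lower at that limit (median log2 fold change 0.10 over the list, 0.005 over all genes). Cyp2c70, which makes the muricholic acids of mice, stood at 278 ± 54.1 CPM in IR 4A and 366 ± 70.5 CPM in WT (SD, n = 5 each), a log2 change of -0.40 (SE 0.16, edgeR adjusted p = 0.232). Hsd3b7, a steroid dehydrogenase of both routes, had a log2 change of -0.26 (edgeR adjusted p = 0.256). Akr1d1, the steroid reductase of both routes, had one of 0.51 (edgeR adjusted p = 0.361), and the aldo-keto reductase gene Akr1c6 one of 0.28 (edgeR adjusted p = 0.421). Without WT 1 and WT 3 these were 0.14 for Akr1d1 and 0.06 for Akr1c6, and without WT 2 that of Akr1d1 was 0.84 (edgeR adjusted p = 0.0914).

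Transport genes outside the 10 gave the largest estimates. Of 14 tested, 0 passed, and at an unadjusted p under 0.05, 3 lay above and 1 lay below WT, against the same 8.6% and 9.48% of all genes (median log2 fold change 0.25). Slco1a4, a sinusoidal organic anion uptake carrier, was 42.9, 62.6, 95.03, 77.6 and 89.4 CPM in IR 4A livers 1 to 5, against 7.35, 47.9, 30.7, 34.3 and 28.0 CPM in WT livers 1 to 5. Every IR 4A liver but IR 4A 1 lay above every WT liver, and the log2 fold change was 1.31 (SE 0.37, edgeR adjusted p = 0.143). Abcc3, the basolateral export pump MRP3, was 259, 284, 296, 292 and 311 CPM in IR 4A livers 1 to 5, against 64.6, 255, 121, 176 and 203 CPM in WT livers 1 to 5. Every IR 4A liver lay above every WT liver for Abcc3, with WT 1 the lowest (3.51% of all genes had groups that did not overlap), and the log2 fold change was 0.82 (SE 0.27, edgeR adjusted p = 0.176). Without WT 1 and WT 3 the log2 fold change was 1.00 for Slco1a4 and 0.45 for Abcc3 (edgeR adjusted p = 0.227 for both). Abcb1a, a multidrug export pump, had a log2 change of 0.89 (edgeR adjusted p = 0.230), and Atp8b1, the canalicular phospholipid flippase, one of -0.45 (edgeR adjusted p = 0.233). Without WT 1 and WT 3 these were 0.52 for Abcb1a and -0.15 for Atp8b1.

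Of 21 tested regulators, 0 passed, and at an unadjusted p under 0.05 none was higher and 8 were lower in IR 4A, where 9.48% of all genes were lower at that limit. Those 8 were Nr1h3, Cebpb, Rxra, Nr1h2, Fgfr4, Hnf4a, Nr5a2 and Smarca4. Rxra, the partner that FXR and the LXR receptors bind DNA with, stood at 316 ± 17.7 CPM in IR 4A and 389.9 ± 53.7 CPM in WT (SD, n = 5 each), a log2 change of -0.30 (SE 0.10, edgeR adjusted p = 0.175). The LXR genes were Nr1h3, with a log2 change of -0.21 (edgeR adjusted p = 0.171), and Nr1h2, at 19.5 ± 0.859 CPM in IR 4A and 22.0 ± 0.748 CPM in WT (SD, n = 5 each). Every IR 4A liver lay below every WT liver for Nr1h2, though the log2 fold change was small, -0.17 (SE 0.06, edgeR adjusted p = 0.199). Cebpb, a transcription factor of the acute phase and of metabolism, had one of -0.62 (SE 0.20, edgeR adjusted p = 0.172), and of -0.80 without WT 1 and WT 3.

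**Figure D4:**
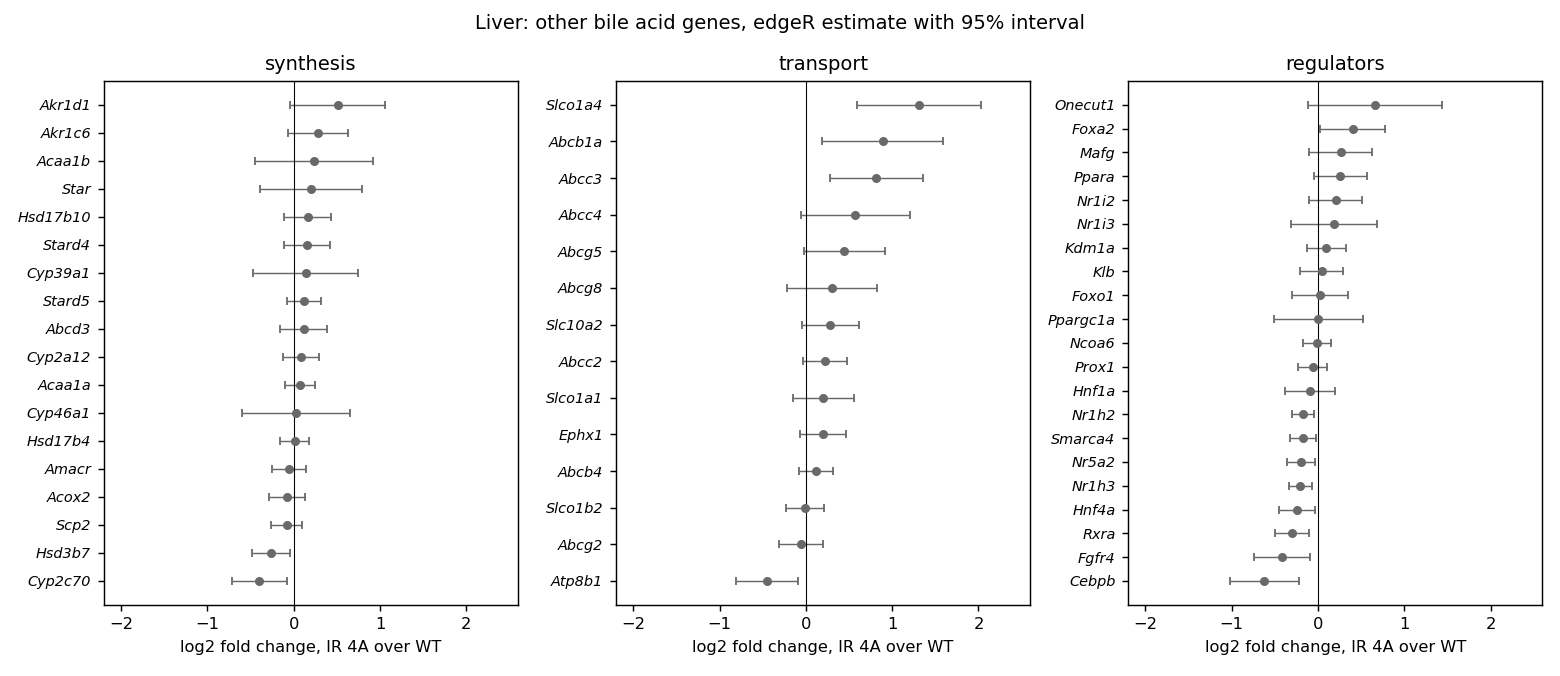
Log2 fold change of IR 4A over WT in liver (horizontal axis) for the tested genes of the synthesis, transport and regulator lists (rows, ordered by estimate), points being the edgeR estimate and bars the 95% interval. The highest estimates are the transport genes Slco1a4, Abcb1a and Abcc3, and none of the genes shown passed adjustment over all genes.

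All 9 genes with an entry in both tables were higher in liver than in eWAT. In WT, 9 of 9 passed for liver over eWAT (edgeR quasi-likelihood test over 20 libraries, Benjamini-Hochberg adjustment), where 33.9% of 14696 genes passed in that direction. In IR 4A, 9 of 9 passed too, where 34.8% did. Cyp27a1 differed least: liver exceeded eWAT 38.5-fold in IR 4A and 27.9-fold in WT (log2 5.27 and 4.80, edgeR adjusted p = 4.17e-14 and 1.09e-13). Nr1h4 had a log2 difference of 8.78 in IR 4A and 7.55 in WT, and Cyp7b1 one of 7.99 in IR 4A and 8.46 in WT. The other 6 genes lay 10.15 to 12.33 log2 units higher in liver than in eWAT in WT, from few eWAT counts. These 6 were below the count filter in eWAT alone and entered this test through their liver counts, so their passing adds little. Without the 4 eWAT libraries with hepatocyte markers above 50 CPM, their differences in WT ran from 12.24 for Baat to 16.24 for Cyp7a1. That left eWAT WT 1 and WT 5 in WT, which had 0 counts of Cyp7a1 and Cyp8b1. The differences of these genes are therefore set by the floor of the counts and give no measured size. In a bulk sample, fewer cells of a type and less RNA per cell cannot be told apart.

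In fat, these genes fell into 3 that every library contained and 6 that most libraries nearly lacked. The counts given here are unscaled, and every IR 4A eWAT library had a smaller total than every WT one, so they do not compare the genotypes. Cyp27a1 had 322, 428, 312, 349 and 472 counts in IR 4A eWAT 1 to 5, against 590, 329, 514, 898 and 514 counts in WT eWAT 1 to 5. Cyp7b1 had 42, 29, 20, 40 and 35 counts in IR 4A, against 54, 38, 56, 51 and 43 counts in WT. Both genes of the alternative route were thus read in all 10 fat libraries. Nr1h4 had 9, 11, 5, 21 and 7 counts in IR 4A, against 61, 14, 12, 58 and 13 counts in WT, with WT 1 and WT 4 far above the rest. Each of the other 6, Cyp7a1, Cyp8b1, Slc27a5, Baat, Slc10a1 and Abcb11, had a count of 0 in at least 1 eWAT library and was below the count filter.

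The 6 low genes were read mainly in eWAT libraries that also held hepatocyte markers. Summed over 8 hepatocyte markers, eWAT libraries 1 to 5 had 89, 42, 20, 4675 and 44 counts in IR 4A, against 83, 1011, 1136, 8940 and 38 counts in WT. In CPM, 4 libraries stood above 50, namely IR 4A 4 (281), WT 4 (450), WT 2 (66.5) and WT 3 (60.0), and the other 6 stood at 1.38 to 6.37. Those 4 libraries held 99.1% of the eWAT counts of Slc10a1 (105 of 106), 94.1% of Cyp7a1, 93.9% of Cyp8b1, 89.8% of Slc27a5, 87.8% of Abcb11 and 81.8% of Baat. The same share was 97.8% for the albumin gene Alb, and 49.8% for Nr1h4, 45.3% for Cyp7b1 and 44.2% for Cyp27a1. In the 6 libraries with few hepatocyte counts, which had 95214653 counts in all, Cyp7a1 and Slc10a1 had 1 count each, Cyp8b1 2, Baat 6, Slc27a5 10 and Abcb11 12.

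How many counts liver RNA would bring at a given level of the 8 markers was read from the liver libraries. In eWAT WT 4, which had most of these markers, Slc10a1 had 62 counts where the liver ratio gives 46.2, Slc27a5 55 where it gives 53.0, Abcb11 48 where it gives 40.3 and Baat 21 where it gives 18.3. In eWAT IR 4A 4, Slc10a1 had 30 where it gives 24.2, Slc27a5 26 where it gives 27.7, Abcb11 17 where it gives 21.1 and Baat 5 where it gives 9.58. Against the range of the ratio over the 10 livers, Slc10a1 in WT 4 lay above it (37.2 to 58.9) and Baat lay above it in WT 4 (15.5 to 20.7) and below it in IR 4A 4 (8.11 to 10.8). Abcb11 in IR 4A 4 lay just below it (17.04 to 25.8), and the other 4 of these 8 counts lay within it. In WT 2, Abcb11 had 16 counts where the ratio gives 4.56. Cyp8b1 had 22 counts in WT 4, where the ratios of the 10 livers give 17.9 to 53.04, and 4 in IR 4A 4, below the 9.35 to 27.7 that they give. Cyp7a1 had 7 counts in WT 4, where the ratios of the 10 livers give 6.13 to 65.4, and 2 in IR 4A 4, where they give 3.21 to 34.2. Cyp27a1 had 898 counts in WT 4, where the ratio gives 41.2, and Nr1h4 had 58 where it gives 14.2, so both exceeded the liver ratio even in the library with the most hepatocyte markers. Cyp7b1 had 51 in WT 4 where it gives 33.3, within the range of 15.4 to 53.8 from the 10 livers, and 40 in IR 4A 4 where it gives 17.4, above the range of 8.05 to 28.2. In the 6 libraries with few hepatocyte counts the ratio gives under 1 count of each of the 9 genes, whereas Cyp7b1 had 20 to 54, Cyp27a1 312 to 590 and Nr1h4 5 to 61. The highest count in any of these 6 libraries was 6 for Slc27a5, 4 for Abcb11 and 3 for Baat, above what the ratio gives there.

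**Figure D5:**
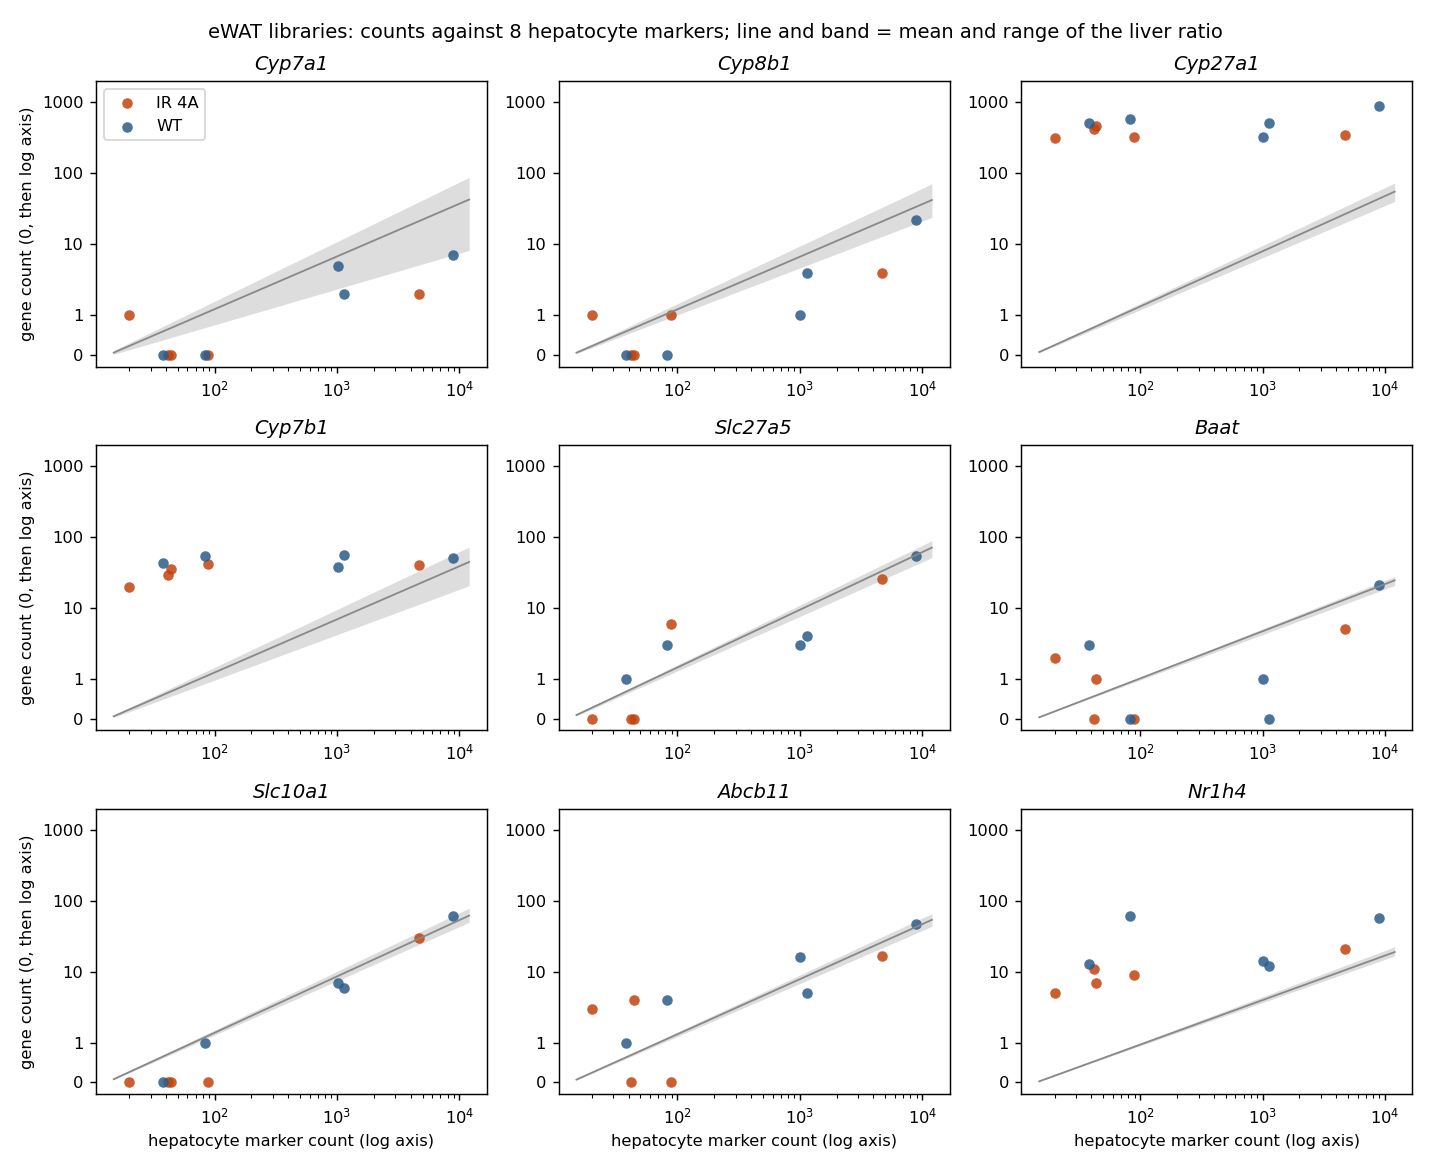
Counts of 9 genes in each eWAT library (vertical axis, 0 then log scale) against the summed counts of 8 hepatocyte markers in that library (horizontal axis, log scale), points coloured by genotype, with the line and band giving the mean and range of the ratio in the 10 liver libraries. Slc10a1 and Slc27a5 in the libraries with the most markers lie at the band, Cyp27a1 lies above it in all 10 libraries, and Nr1h4 lies above it with WT 1 as high as WT 4.

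Between genotypes in eWAT, 3 of the 9 genes passed the count filter, and 0 of these 3 passed the test, where 0.0121% of 16476 genes did (2 genes, lower in IR 4A). At an unadjusted p under 0.05 the count was 1 of 3, Nr1h4, where 15.9% of all genes lay under that limit, and DESeq2 and limma voom also called 0. Cyp27a1 averaged 25.1 ± 4.58 CPM in IR 4A and 30.8 ± 8.79 CPM in WT (SD, n = 5 each), a log2 change of -0.29 (SE 0.20, edgeR adjusted p = 0.495), and of -0.11 without WT 4 (edgeR adjusted p = 0.750). Cyp7b1 averaged 2.21 ± 0.596 CPM in IR 4A and 2.65 ± 0.178 CPM in WT (SD, n = 5 each), a log2 change of -0.26 (SE 0.21, edgeR adjusted p = 0.574), and of -0.13 without IR 4A 3. Estimates of all 3 were negative, as were those of 59.9% of all genes in eWAT. The part of other cell types in these estimates was not tested.

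Nr1h4 in eWAT was 0.645, 0.751, 0.345, 1.26 and 0.457 CPM in IR 4A libraries 1 to 5, against 2.96, 0.922, 0.634, 2.92 and 0.788 CPM in WT libraries 1 to 5. The high values were those of WT 1 and WT 4, and the other 3 WT libraries lay within the IR 4A range. The log2 fold change was -1.24 (SE 0.55, edgeR adjusted p = 0.313, unadjusted p = 0.0486), and -0.88 without WT 1 and -0.93 without WT 4 (edgeR adjusted p = 0.472 and 0.547). WT 4 was the library with the most hepatocyte markers, whereas WT 1 had 83 counts of them. WT 1 stood apart in markers of intestinal epithelium, a list of 10 picked after the values were seen. Their summed level was 543 CPM in WT 1, against 67.2 to 92.4 CPM in the other 9 libraries, and 10 of 10 had their highest count in WT 1, among them Muc2 (8366 counts, 298 to 756 in the others), Muc13 (609 counts, 0 to 5 in the others) and Cdx1 (39 counts, 0 in the others). Of the bile acid transporters of the ileum, Slc10a2, the apical carrier, had 72 counts in WT 1 and 3 to 11 in the others. Slc51a and Slc51b, the subunits of the basolateral exporter, had 35 and 30 counts in WT 1 and 0 to 3 in the others. The part of these markers in the Nr1h4 value was not tested.

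Whether the genotype difference itself differed between tissues was tested as an interaction, given as the log2 fold change in eWAT minus that in liver. Of the 9 genes, 0 passed, where 2.41% of 14696 genes passed, and 1 lay at an unadjusted p under 0.05, where 22.1% of all genes did. That gene was Nr1h4, with a difference of -1.23 (SE 0.48, edgeR adjusted p = 0.144). The difference was -0.46 for Cyp27a1 (edgeR adjusted p = 0.271) and 0.47 for Cyp7b1 (edgeR adjusted p = 0.490), and DESeq2 and limma voom also called 0. For the 6 low genes it rested on the few eWAT libraries with hepatocyte markers, and its adjusted p ran from 0.435 to 0.722.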

How the data were processed

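Poly-A RNA was made into stranded libraries and sequenced as read pairs, per the labels' protocols. The deposited tables of whole-number counts hold no gene whose counts sum to under 10 over the 10 libraries of its tissue. Salmon 1.8.0, DESeq2 1.32.0 and build GRCm39 are named in the submitters' processing notes, and their settings are not given in the sources used here. The authors' DESeq2 tables give each gene's mean signal, a log2 fold change with its SE, and a p-value with its adjusted form, per the file headers. The deposited normalized values on a log2 scale were not used. Columns were matched to samples by tissue, genotype (Ctl read as WT) and number, and none belonged to another series.

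Entries repeating a gene identifier were dropped (83 in liver, 208 in eWAT). The filter was filterByExpr in edgeR 4.0.16, with a minimum count of 10 and a minimum total of 15, after which 12421 liver genes, 16476 eWAT genes and 14696 of the 15350 genes of both tables were tested. Libraries were scaled by TMM. Genotypes were compared within each tissue, and tissues and the interaction over all 20 libraries, by edgeR's two-sided quasi-likelihood F test with Benjamini-Hochberg adjustment over all genes and a threshold of 0.05 (R 4.3.3). The tests were checked on simulated data that had less spread between libraries than eWAT, with changes put only into genes with many counts. That check does not cover the genes with few counts in eWAT. The biological coefficient of variation common to all genes was 0.187 for liver and 0.512 for eWAT. No library repeated another, since the counts of libraries of a group differed by a chi-square of 12.5 or more per degree of freedom.

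The 10 genes, the lists and the tests were chosen with earlier results of these data known. Named genes were all 10 members, the 4 genes of each list with the smallest p in liver, and the 3 most and 3 least alike Cyp7a1, Cyp8b1 and Cyp7b1 (pseudocount 0.5 CPM). Same-numbered liver libraries of the genotypes did not deviate together (correlations of -0.09 to 0.09). In eWAT the correlations ran from -0.78 to 0.65, with no common direction, and 0 of 10 libraries correlated best with their own number. The numbers were therefore not taken as pairs. The alternatives were scaling by RLE or by upper quartile, leaving genes unfiltered or asking for 1 CPM in 5 libraries, DESeq2 1.42.0, limma 3.58.1 voom with sample weights, a robust prior in edgeR, the replicate number as a block, all 20 libraries in 1 fit, an adjusted p of 0.1, and leaving out each library, liver WT 1 and WT 3, or eWAT libraries with hepatocyte markers (the last chosen after the data were seen). Promoters and transcript lengths are of build GRCm38, which differs from the authors' GRCm39, so no coordinates were taken from the files.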

Additional observations from a re-analysis of the deposited data

Results flagged for a closer look

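Within each group of 5 libraries, the highest and the lowest value of each gene were compared with the rest. A library was set aside for a closer look when its gap to the nearest other library exceeded 0.71 of the group's range (Dixon's critical value). Among normally distributed values, chance gives such a gap in about 1 in 20 groups. That rate does not hold for genes with few or no counts in most eWAT libraries. Of 38 groups examined, 9 had such a library, and 7 of these 9 were eWAT libraries number 4. In liver it was Nr0b2 in WT 4, at 10.7 CPM, the liver whose Cyp7a1 was the second lowest. In eWAT IR 4A 4 the genes were Slc27a5 at 1.56 CPM, Slc10a1 at 1.8002 CPM and Abcb11 at 1.02 CPM. In eWAT WT 4 they were Slc27a5 at 2.77 CPM, Slc10a1 at 3.12 CPM, Cyp8b1 at 1.11 CPM and Baat at 1.06 CPM. IR 4A 4 and WT 4 were the eWAT libraries with the most hepatocyte marker counts, 4675 and 8940. The remaining case was Cyp7b1 in eWAT WT 3, at 2.96 CPM, whose WT group had a narrow range. No difference of the genotype effect between tissues passed its test for any of the genes.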

How the results depend on the processing

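The counts of members called stayed at 0 in liver, in eWAT and for the interaction under every alternative run, and at 8 or 9 for liver over eWAT, where DESeq2 gave Slc10a1 no adjusted p. Over all genes the calls varied more: against 1 in liver, 2 in eWAT and 354 for the interaction, DESeq2 called 451, 1204 and 1273, and voom 4, 78 and 628. The replicate block called 3, 0 and 0, and 0 members; 2 of 10 liver and 0 of 10 eWAT libraries correlated best with their own number. Of 800 single estimates of members, 780 kept their direction and side of the threshold and 20 turned sign, none past the threshold; the 252 for other named genes all kept both. Those that turned were small or rested on few counts. In liver, Nr0b2 was 0.055 with voom and 0.038 with the replicate block, Slc10a1 0.00074 with the block and 0.026 in the fit of 20 libraries, and Nr1h4 0.047 without WT 1 and WT 3. For the interaction, Baat was 0.33 with voom, and Cyp7a1 1.93 and Cyp8b1 2.24 without the 4 eWAT libraries high in hepatocyte markers, where the remaining WT libraries had 0 counts of both. Leaving out single libraries, estimates ran from -0.12 to 0.26 for Nr0b2, -0.064 to 0.0078 for Nr1h4 and -0.046 to 0.051 for Slc10a1 in liver, and for the interaction from -2.17 to 0.91 for Baat, -2.53 to 0.48 for Cyp8b1, -6.32 to 1.04 for Slc10a1 and -2.84 to 1.29 for Slc27a5. The cause was not tested. The block was the replicate number within tissue, which could not be fitted for liver over eWAT because it holds the tissue, and leaving out eWAT libraries with testis markers above 100 CPM was not run, since all 10 exceeded it. The 6 low genes in eWAT had counts of 0 in some libraries, so their estimates there rest on few counts.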
